A study of Chlamydomonas reinhardtii with 12 samples.

Results

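Transcripts of 10 heat shock proteins and chaperones of the unicellular green alga Chlamydomonas reinhardtii were followed through 4 groups of cultures. The members were taken by gene ID from the 17741 IDs of the deposited tables: HSP70A (Cre08.g372100), HSP90A (Cre09.g386750), HSP70B (Cre06.g250100), HSP90C (Cre12.g514850), CLPB3 (Cre02.g090850), HSP22E (Cre14.g617450), HSP22F (Cre14.g617400), VIPP1 (Cre13.g583550), VIPP2 (Cre11.g468050) and BIP1 (Cre02.g080700). The list is a set of names and uses no threshold on measured values, and all 10 passed the filter on low counts, among 15286 genes tested. The groups were vip1-1 cells under nutritional stress, wild-type (WT) cells under nutritional stress, vip1-1 control cells and WT control cells, with 3 libraries each, called biological replicates in the labels. All 12 cultures carry the strain name CC-1690 in the labels, grew in liquid TAP (an acetate-containing medium) at 25 °C under 1 light level, and differed in age: control cultures were taken after 24 h and stress cultures after 14 days. Nutrient state and culture age therefore cannot be told apart, and "stress" stands for the older culture throughout. The strain vip1-1 is described in the series as short of inositol pyrophosphates, phosphate-rich signalling molecules, and the study asked how they take part in the response to nutrient limitation. Its mutated gene has no name in the tables used here, so its level was not checked, and it is unrelated to VIPP1 and VIPP2 in spite of the similar spelling.

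Chaperones bind unfolded or partly folded proteins, keep them from clumping and help them fold, and heat shock factor raises many of them together when proteins are damaged. In this alga the cytosol uses HSP70A and HSP90A, the chloroplast stroma has its own set (HSP70B, HSP90C, the disaggregase CLPB3 and the small heat shock proteins HSP22E and HSP22F), and the endoplasmic reticulum uses BIP1, an HSP70 whose transcript is a common marker of folding load in the secretory pathway. VIPP1 and VIPP2 are related proteins that coat and remodel chloroplast membranes. VIPP1 serves the building and upkeep of thylakoids and works with HSP70B, and VIPP2 is known as a stress-induced companion that gathers small heat shock proteins at chloroplast membranes.

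Total counts per library ran from 9749837 (WT control replicate 1) to 28833327 (vip1-1 control replicate 2). One feature, Cre14.g634322, was abundant to a varying degree. Its share of a library was 0.490% to 19.5% in vip1-1 stress, 10.4% to 27.1% in WT stress, 0.218% to 1.96% in vip1-1 control and 3.70% to 28.1% in WT control. The highest share, in WT control replicate 1, had a 95% Wilson interval of 28.04% to 28.1%, which covers counting error only. That library also stood apart by its low TMM factor (0.345) and by its 11475 IDs with a count. Without it 3 members were called for stress in vip1-1 (27.1% of all tested genes) and 2 in WT (22.8%). Levels below are CPM, counts scaled to a common library total, after TMM scaling, which corrects for such dominance, and the part of that share in any genotype difference was not tested beyond a fit with it as a covariate. In bulk RNA a change in every cell and a change in some of the cells cannot be told apart.

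**Figure D1:**
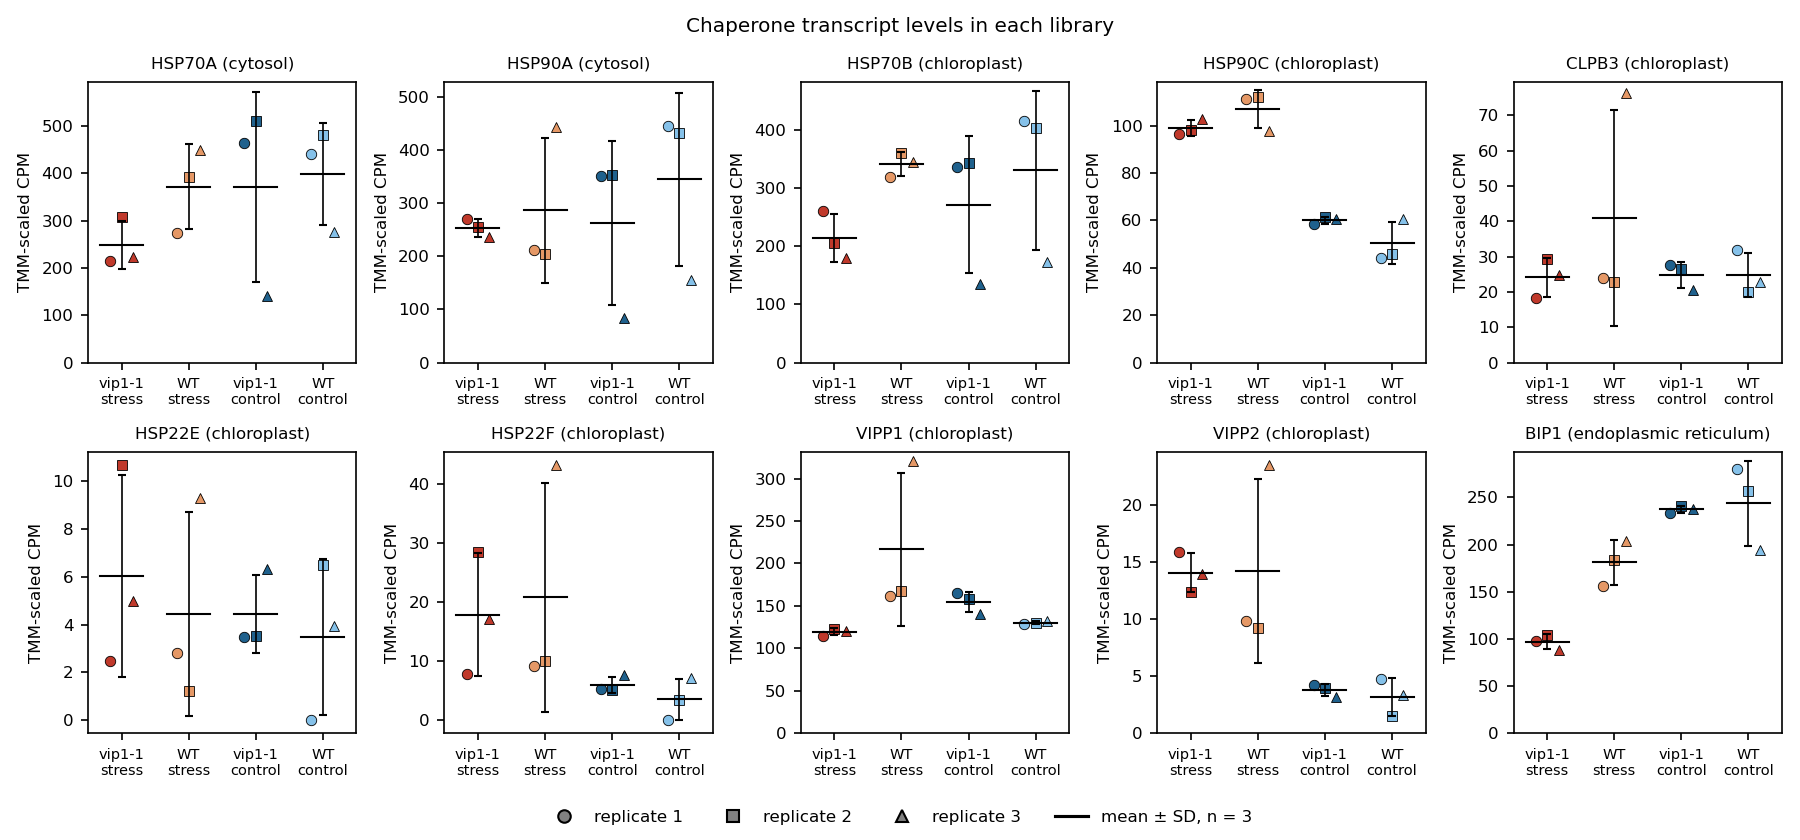
TMM-scaled CPM (y axis, linear, from 0) of the 10 members in each of the 12 libraries, by group (x axis). Points are libraries, with the replicate number as the symbol, and bars are mean ± SD (n = 3). HSP90C and VIPP2 sit higher in all stress libraries than in all control libraries, BIP1 is lowest in the 3 vip1-1 stress libraries (88.1 to 103.9 CPM), and replicate 3 of both control groups lies low for HSP70A, HSP90A and HSP70B.

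Between genes, levels were compared per length, as FPKM divided by the library's TMM factor. In vip1-1 stress the medians ran from 85.9 for HSP90A, 77.4 for HSP70A, 63.0 for VIPP1, 54.7 for HSP70B, 33.1 for HSP90C and 23.2 for BIP1 to 11.1 for HSP22F, 6.78 for VIPP2, 6.17 for CLPB3 and 4.01 for HSP22E. Within that order the ranges of HSP90A and HSP70A overlapped, as did those of VIPP1 and HSP70B and those of the 4 lowest members among each other, whereas HSP90C (32.4 to 34.4) lay apart from both of its neighbours. In WT control the medians were 152 for HSP70A, 145 for HSP90A, 107 for HSP70B, 68.3 for VIPP1, 60.7 for BIP1, 15.4 for HSP90C, 5.71 for CLPB3, 3.17 for HSP22E, 2.16 for HSP22F and 1.62 for VIPP2. There the ranges of the 3 highest members overlapped, and VIPP1 (66.8 to 69.7) lay above BIP1 (45.9 to 65.8). The members thus ran from near the top of the scale to somewhat below its middle: in WT control HSP70A exceeded 97.36% of the tested genes and VIPP2 38.48%. HSP90C stood above BIP1 in vip1-1 stress, the medians of WT stress were 37.4 for HSP90C and 43.1 for BIP1 with overlapping ranges, and HSP90C stood below BIP1 in every control library.

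The first question was how the older, nutrient-limited cultures differed from fresh ones within each genotype. In vip1-1, HSP90C and VIPP2 rose and BIP1 fell, and 3 of 10 members thus passed the threshold of 0.05 on the p-value adjusted over all genes (edgeR, quasi-likelihood), against 23.2% of all tested genes, 12.2% on the higher side and 11% on the lower side. In WT, HSP90C and VIPP2 rose and no member fell, 2 of 10 members against 26% of all tested genes, 13.9% on the higher side and 12.1% on the lower side. Limma voom with sample weights called 9 members in vip1-1 and 4 in WT, with 66.9% of all tested genes called in vip1-1 and 40.4% in WT. The edgeR shares of members and the voom share in WT are near the background, so they are no result about the list as a whole. The voom share in vip1-1, 9 of 10, lay above its background of 66.9% and was not tested for the list. Counted by libraries instead, HSP90C, HSP22F and VIPP2 lay higher without overlap in vip1-1 stress (3 of 10, against 28.9% of all tested genes), and VIPP1 and BIP1 lay lower (2 of 10, against 24.5%). In WT stress HSP90C, HSP22F, VIPP1 and VIPP2 lay higher without overlap (4 of 10, against 25.6%) and 0 of 10 lay lower (against 16.8%). The median log2 fold change of the 10 members was -0.05 in vip1-1 and 0.50 in WT, beside 0.09 and 0.19 over all tested genes. The members differed among themselves more than those medians show, from -1.30 (BIP1) to 1.89 (VIPP2) in vip1-1 and from -0.43 (BIP1) to 2.43 (HSP22F, not called) in WT.

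**Figure D2:**
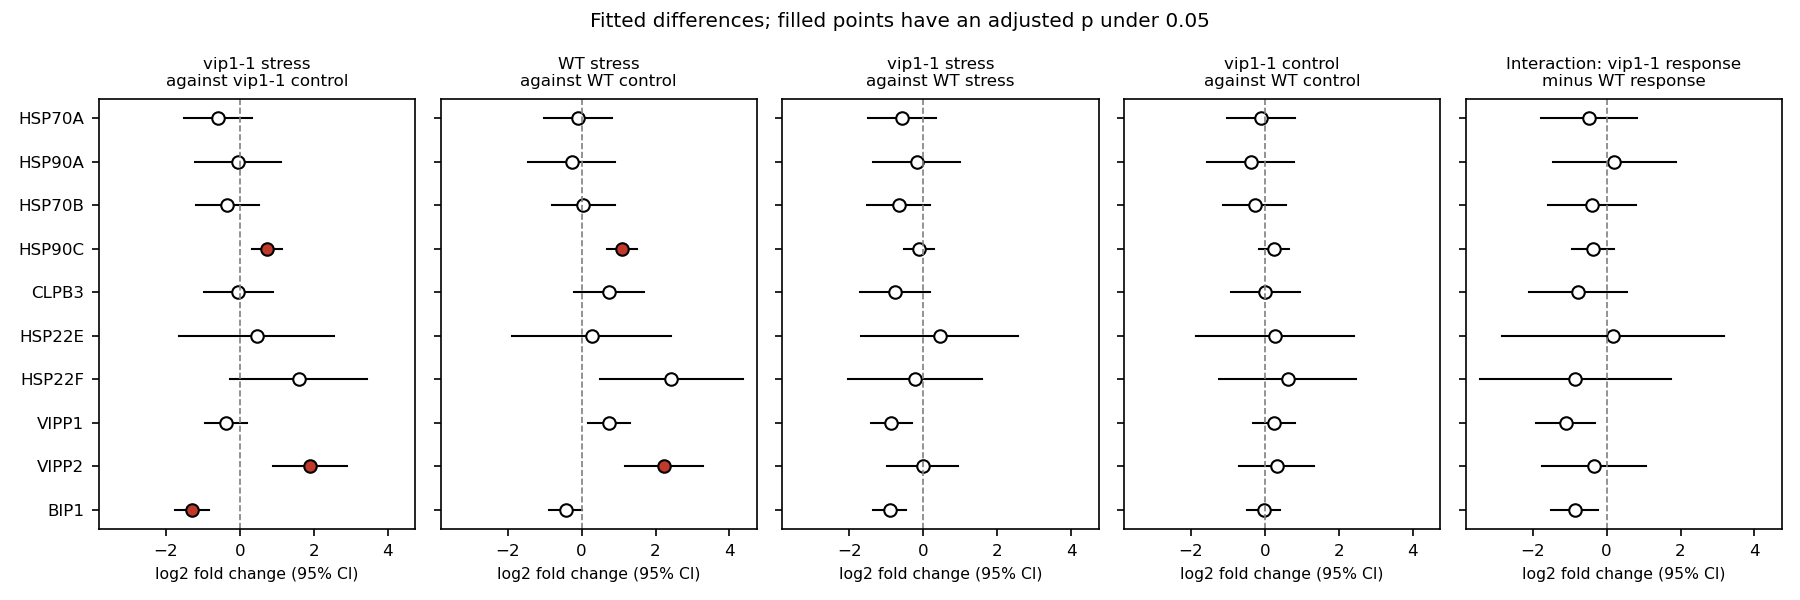
Log2 fold change (x axis, shared scale) with its 95% confidence interval for each member (rows) in the 5 comparisons (panels). Filled points passed an adjusted p of 0.05 in edgeR's quasi-likelihood test: HSP90C, VIPP2 and BIP1 for stress in vip1-1, HSP90C and VIPP2 for stress in WT, and no member in the 3 panels on genotype.

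VIPP2 changed most among the called members in both genotypes. It had 15.8, 12.4 and 13.9 CPM in vip1-1 stress, against 4.20, 3.97 and 3.17 CPM in vip1-1 control. It had 9.87, 9.25 and 23.6 CPM in WT stress, against 4.76, 1.46 and 3.30 CPM in WT control. Every stress library was above every control library, and WT stress replicate 3 was the highest of all 12. The rise was 3.71-fold in vip1-1 (log2 1.89, SE 0.46, adjusted p = 0.012) and 4.68-fold in WT (log2 2.23, SE 0.48, adjusted p = 0.0062, edgeR for both). Counts behind these levels were low, from 16 in WT control replicate 1 to 343 in vip1-1 stress replicate 2. Fitted with only the compared groups, the WT call was lost (adjusted p = 0.064, edgeR).

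VIPP1, the abundant partner, took another course. It had 114.9, 122.7 and 120.4 CPM in vip1-1 stress, against 164.8, 158.1 and 140.9 CPM in vip1-1 control. It had 161.9, 167.9 and 321 CPM in WT stress, against 128.2, 130.1 and 132.4 CPM in WT control. In vip1-1 all stress libraries lay below all controls, and in WT all stress libraries lay above all controls. Neither difference was called: log2 fold change -0.37 (SE 0.26, adjusted p = 0.33) in vip1-1 and 0.74 (SE 0.26, adjusted p = 0.055) in WT (edgeR). Without WT stress replicate 3, the library at 321 CPM, the WT value was 0.23 and the fall in vip1-1 passed (log2 -0.51, adjusted p = 0.03), and without WT stress replicate 1 the rise in WT passed (log2 0.91, adjusted p = 0.038, edgeR). Relative to the median of all tested genes, the vip1-1 value was -0.46 both in the reported fit and without WT stress replicate 3. It was also -0.46 without WT control replicate 1 and without WT stress replicate 2, where the fall was not called. Why the fall passed without WT stress replicate 3 was not tested. The WT difference also passed with RLE size factors (adjusted p = 0.047, edgeR), with at least 10 counts in every library (adjusted p = 0.032, edgeR) and with DESeq2 (adjusted p = 0.016).

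Within a library the ratio of the VIPP FPKM values does not depend on library scaling, and it was looked at after the levels had been seen, as a description. VIPP2 over VIPP1 was 0.128, 0.0940 and 0.108 in vip1-1 stress and 0.0565, 0.0508 and 0.0682 in WT stress. It was 0.0236, 0.0233 and 0.0209 in vip1-1 control and 0.0344, 0.0104 and 0.0233 in WT control. All stress libraries were above all control libraries, and all vip1-1 stress libraries were above all WT stress libraries. The control groups overlapped.

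**Figure D3:**
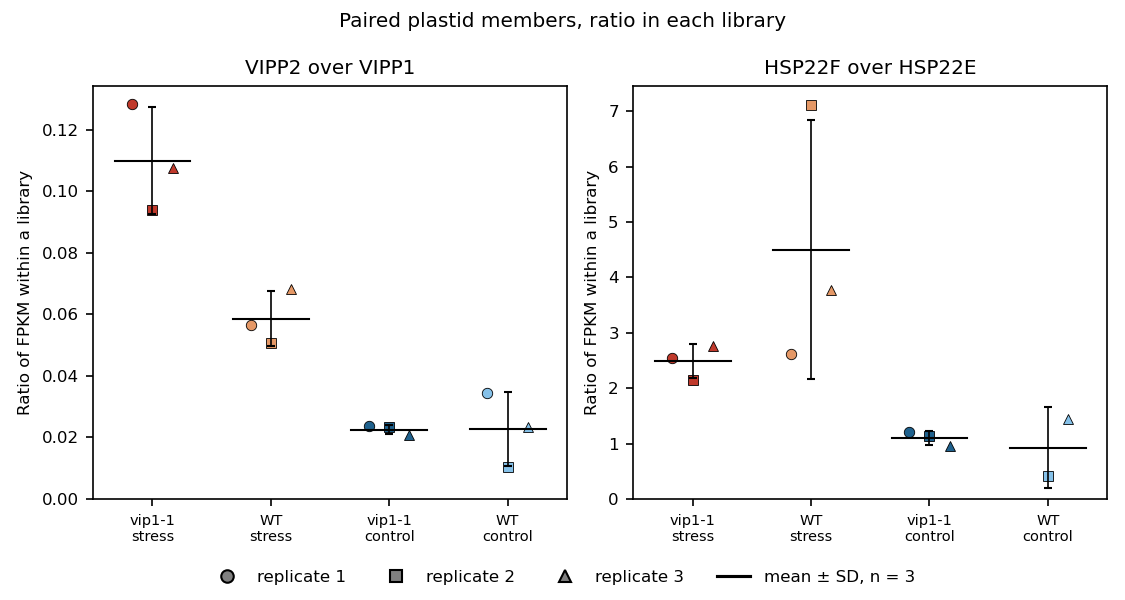
Ratio of FPKM within a library (y axis, linear, from 0) for VIPP2 over VIPP1 and for HSP22F over HSP22E, by group (x axis). Points are libraries and bars are mean ± SD, with n = 3 except HSP22F over HSP22E in WT control (n = 2), where replicate 1 is listed at 0 for both genes. Both ratios are higher in every stress library than in every control library.

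HSP90C, the chloroplast HSP90, was the other member that rose in both genotypes. It had 96.3, 98.0 and 102.7 CPM in vip1-1 stress, against 58.4, 61.3 and 60.4 CPM in vip1-1 control. It had 111.1, 112.1 and 97.8 CPM in WT stress, against 44.3, 46.0 and 60.5 CPM in WT control. No stress library overlapped a control library, and replicates were close, with an SD of 2.52% to 17.7% of the group mean. The rise was 1.65-fold in vip1-1 (log2 0.72, SE 0.18, adjusted p = 0.016) and 2.12-fold in WT (log2 1.09, SE 0.19, adjusted p = 0.0017, edgeR for both). Fitted with only the compared groups, the WT call was lost narrowly (adjusted p = 0.0501, edgeR). Library totals and limma on log2(FPKM + 0.1) and log2(FPKM + 1) ended the call in both genotypes. The vip1-1 call was lost, at an adjusted p of 0.054 to 0.12 in edgeR, when any one of vip1-1 control replicate 1 or 2, vip1-1 stress replicate 3, WT control replicate 2 or WT stress replicate 2 was left out. The WT libraries named are not in this comparison, but leaving out either moved the median of all tested genes from 0.09 to -0.05. Leaving out WT control replicate 1 or WT stress replicate 3 also moved it to -0.05, and there the call held. Relative to that median HSP90C stood at 0.637 in the reported fit, 0.635 without WT control replicate 2 and 0.636 without WT stress replicate 2. Why the call was lost in some of these fits was not tested.

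HSP70B, the stromal HSP70 that works with HSP90C, did not share that rise. It had 260, 205 and 179 CPM in vip1-1 stress, against 336, 342 and 136 CPM in vip1-1 control, with overlapping groups and a log2 fold change of -0.34 (95% interval -1.19 to 0.51). The WT cultures had 318, 360.1 and 345 CPM under stress, against 415, 403 and 173 CPM in control, with a log2 fold change of 0.05 (-0.80 to 0.89). The intervals leave room for a change of either sign, and in both genotypes the control range was set by replicate 3.

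Of the cytosolic members, HSP70A had 215, 307 and 223 CPM in vip1-1 stress, against 464, 510.0 and 142 CPM in vip1-1 control. In WT it had 273, 393 and 449 CPM under stress, against 440.2, 481 and 275 CPM in control. HSP90A, which matures kinases and other client proteins, had 270.1, 255 and 236 CPM in vip1-1 stress, against 352, 353 and 84.4 CPM in vip1-1 control. WT libraries held 212, 205 and 445 CPM under stress, against 445, 433 and 156 CPM in control. The groups overlapped for both genes in both genotypes, and no call was made. The log2 fold changes were -0.58 for HSP70A and -0.05 for HSP90A in vip1-1, and -0.10 for HSP70A and -0.26 for HSP90A in WT, with standard errors from 0.42 to 0.54.

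In the control groups the spread of HSP70A, HSP90A and HSP70B came mainly with replicate 3. HSP90A was spread as widely in WT stress, where replicate 3 was the highest library. Its SD was 47.6% of the mean there and 47.4% in WT control. In replicate 3 of the controls, as a share of the mean of replicates 1 and 2, HSP90A stood at 0.239 in vip1-1 control and 0.356 in WT control. HSP70A stood at 0.290 in vip1-1 control and 0.598 in WT control, and HSP70B at 0.400 in vip1-1 control and 0.423 in WT control. The other 7 members did not share this low position, with shares from 0.764 (CLPB3) to 1.80 (HSP22E) in vip1-1 control and from 0.722 (BIP1) to 4.20 (HSP22F, with replicate 1 at 0) in WT control. Among 13520 genes with both shares defined, 8.89% were at or below 0.598 in both groups. Without replicate 3 of both control groups, an alternative chosen after seeing the data, 5 members were called in vip1-1: HSP70A (log2 -0.97, adjusted p = 0.018) and HSP70B (log2 -0.66, adjusted p = 0.03) joined BIP1 on the lower side (edgeR), with 27.7% of all tested genes called. HSP70A passed also when only vip1-1 control replicate 3 was left out (log2 -0.97, adjusted p = 0.046, edgeR). In WT the same fit called 4 members, with HSP22F (log2 3.28, adjusted p = 0.04) higher and BIP1 (log2 -0.57, adjusted p = 0.03) lower beside HSP90C and VIPP2 (edgeR), with 37.6% of all tested genes called. What set these libraries apart was not tested. Replicates 1 and 2 of vip1-1 control were also the closest pair within any group, with a Spearman r of 0.99 over genes. Their chi-square per degree of freedom, a measure of how far the counts of a pair differ, was 12.78. Other pairs within a group had 98.25 to 877.4. The fit without replicate 3 rests on this close pair in vip1-1 control, and the reported fit also counts the pair as separate replicates. Leaving out replicate 1 or 2 of vip1-1 control took the genes called for stress in vip1-1 from 3544 to 2243 or 2264. Whether the cultures of this pair were independent was not tested.

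**Figure D4:**
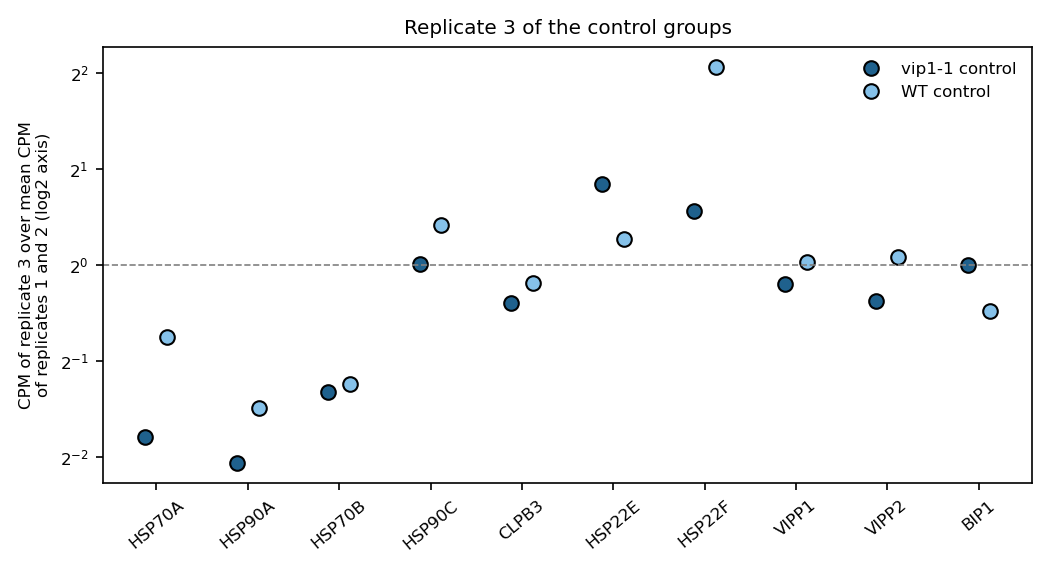
CPM of replicate 3 divided by the mean CPM of replicates 1 and 2 (y axis, log2 scale) for each member (x axis), in vip1-1 control and WT control. The dashed line marks equal levels. HSP70A, HSP90A and HSP70B lie below 0.6 in both genotypes, while the other 7 members lie above 0.7.

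HSP22F and HSP22E, small heat shock proteins that hold unfolding proteins in the chloroplast, are neighbours in the gene order of the RefSeq table. Both were among the lowest members and had 0 counts in WT control replicate 1, where VIPP2 had 16. That library had the fewest counts in all, 9749837, and what lay behind the zeros was not tested. HSP22F had 7.72, 28.5 and 17.1 CPM in vip1-1 stress, against 5.24, 5.0 and 7.55 CPM in vip1-1 control. In WT it had 9.11, 9.99 and 43.3 CPM under stress, against 0, 3.36 and 7.05 CPM in control. The groups did not overlap in either genotype, but the spread under stress was wide, and HSP22F was not called in vip1-1 (log2 1.59, SE 0.84, adjusted p = 0.21) or in WT (log2 2.43, SE 0.88, adjusted p = 0.063, edgeR). Fitted with only the compared groups, HSP22F was called in vip1-1 (log2 1.5, adjusted p = 0.042, edgeR). Without WT stress replicate 3 the WT value was 1.19, and without WT control replicate 3 it was 3.31 with an adjusted p of 0.032 (edgeR).

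HSP22E had 2.46, 10.7 and 4.98 CPM in vip1-1 stress, against 3.48, 3.51 and 6.30 CPM in vip1-1 control. In WT it had 2.80, 1.23 and 9.29 CPM under stress, against 0, 6.50 and 3.93 CPM in control. The groups overlapped in both genotypes, with log2 fold changes of 0.45 (SE 0.96) in vip1-1 and 0.28 (SE 0.98) in WT. HSP22F over HSP22E, as a ratio of FPKM within a library, was 2.55, 2.16 and 2.77 in vip1-1 stress and 2.61, 7.11 and 3.77 in WT stress. It was 1.21, 1.14 and 0.964 in vip1-1 control and 0.413 and 1.44 in replicates 2 and 3 of WT control. Every stress library was above every control library with a value. If reads were shared between these related genes, the authors' counting could have moved reads from one to the other, which was not tested.

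CLPB3, which pulls aggregated proteins apart in the chloroplast, had 18.3, 29.2 and 24.8 CPM in vip1-1 stress, against 27.5, 26.5 and 20.6 CPM in vip1-1 control. In WT it had 23.9, 22.7 and 76.3 CPM under stress, against 31.8, 19.9 and 22.7 CPM in control. The groups overlapped, and WT stress replicate 3 alone stood above 32 CPM. The log2 fold change was -0.05 (SE 0.43) in vip1-1 and 0.73 (SE 0.43, adjusted p = 0.24, edgeR) in WT, and the WT value was -0.18 without that library. WT stress replicate 3 was also the highest library of its group for HSP70A, HSP90A, HSP22E, HSP22F, VIPP1, VIPP2 and BIP1, but the lowest for HSP90C.

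BIP1 was the only member that fell by the test. It had 98.0, 103.9 and 88.1 CPM in vip1-1 stress, against 233, 241 and 237 CPM in vip1-1 control. WT libraries held 156, 183 and 204 CPM under stress, against 279.9, 257 and 194 CPM in control. In vip1-1 the groups lay far apart and replicates were tight, with an SD of 8.24% of the mean under stress and 1.62% in control, while in WT the groups overlapped by 1 library on each side. BIP1 was 2.45-fold lower in vip1-1 stress than in vip1-1 control (log2 -1.30, SE 0.20, adjusted p = 0.0011) and was not called in WT (log2 -0.43, SE 0.20, adjusted p = 0.14, edgeR for both). Another BIP gene of this alga is known, and whether the authors' counting split reads between the copies was not tested. Scaling to library totals alone ended all 3 calls in vip1-1, with log2 values of 1.81 for VIPP2 (adjusted p = 0.12), 0.63 for HSP90C (adjusted p = 0.63) and -1.37 for BIP1 (adjusted p = 0.15, edgeR), and in WT it ended that of HSP90C (log2 0.99, adjusted p = 0.34).

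Genotypes were then compared directly within each condition. Under stress 0 of 10 members were called by edgeR's quasi-likelihood test, against 1.56% of all tested genes, while 2 members, BIP1 and VIPP1, had an unadjusted p under 0.05 (15.3% of all tested genes). DESeq2 called 2 members (7.02% of the genes it adjusted) and limma voom with sample weights 6 (26.3%). BIP1 averaged 96.7 ± 7.97 CPM in vip1-1 stress and 181 ± 23.9 CPM in WT stress (SD, n = 3 each), and the groups did not overlap. The log2 difference was -0.90 (SE 0.20, adjusted p = 0.052), just outside the threshold, and it passed under 7 of 25 alternatives, among them DESeq2 (adjusted p = 2e-05) and edgeR without WT control replicate 1 (adjusted p = 0.049) or 3 (adjusted p = 0.025). With library totals it shrank to -0.27 (adjusted p = 0.87, edgeR) and with limma on log2(FPKM + 1) to -0.29 (adjusted p = 0.82). VIPP1 averaged 119 ± 4.04 CPM in vip1-1 stress and 217 ± 90.3 CPM in WT stress (SD, n = 3 each), without overlap, at a log2 difference of -0.86 (SE 0.26, adjusted p = 0.13, edgeR). Without WT stress replicate 3 that value was -0.47, with library totals -0.25 and with limma on log2(FPKM + 1) -0.18. Library totals moved the median of all tested genes in this comparison from 0.05 to 0.60, and relative to that median BIP1 stood at -0.88 and VIPP1 at -0.85, against -0.95 and -0.91 with TMM.

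HSP70B was the third member whose stress libraries did not overlap between genotypes, at 215 ± 41.3 CPM in vip1-1 and 341 ± 21.2 CPM in WT (SD, n = 3 each), with a log2 difference of -0.67 (SE 0.39, adjusted p = 0.46, edgeR). Such separation on the lower side was found for 13.7% of all tested genes and on the higher side for 17.7%, where no member had it. For the members that rose under stress, the log2 difference between genotypes was -0.02 for VIPP2 (95% interval -0.99 to 0.95) and -0.11 for HSP90C (-0.51 to 0.29). The signs over the list were not stable. Negative log2 differences numbered 9 of 10, but 5 of 10 without WT stress replicate 3 and with limma voom. They numbered 4 of 10 with library totals and 3 of 10 with limma on FPKM, settings that also moved the median of all tested genes. Below that median lay 9 of 10 members in the reported fit and 8 of 10 with library totals. With limma it was 8 of 10 on log2(FPKM + 0.1) and 5 of 10 on log2(FPKM + 1). It was 5 of 10 with limma voom and without WT stress replicate 3, so no direction is drawn for the list.

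In fresh cultures no difference between genotypes was called. None of the 10 passed edgeR's quasi-likelihood test, against 0.255% of all tested genes, none had an unadjusted p under 0.05 (6.5% of all tested genes), and DESeq2, limma voom with sample weights and limma on FPKM called 0. The log2 differences of vip1-1 control minus WT control ran from -0.39 for HSP90A to 0.62 for HSP22F. BIP1 averaged 237 ± 3.83 CPM in vip1-1 control and 244 ± 44.6 CPM in WT control (SD, n = 3 each), a log2 difference of -0.04 (95% interval -0.48 to 0.40). VIPP1 was the only member whose control groups did not overlap, at 155 ± 12.3 CPM in vip1-1 control and 130.2 ± 2.09 CPM in WT control (SD, n = 3 each), a log2 difference of 0.25 (-0.31 to 0.81). Of all tested genes, 8.18% were separated on that side. The intervals were widest for HSP22E, from -1.85 to 2.40, and for HSP22F, from -1.23 to 2.47, and leave room for a change of either sign.

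Whether the stress response itself differed between genotypes was tested as the interaction, the response of vip1-1 minus that of WT. No member was called by edgeR's quasi-likelihood test, against 0.0393% of all tested genes, 2 members had an unadjusted p under 0.05 (8% of all tested genes), DESeq2 called 1 (BIP1; 1.41% of the genes it adjusted) and limma voom with sample weights 2 (3.26%). The 2 members were VIPP1, with a log2 difference between the responses of -1.11 (SE 0.36, adjusted p = 0.46, edgeR), and BIP1, with -0.87 (SE 0.29, adjusted p = 0.47, edgeR; DESeq2 adjusted p = 0.028). For HSP90C, which rose in both genotypes, the difference was -0.36 (95% interval -0.93 to 0.20), and for VIPP2 it was -0.33 (-1.74 to 1.07). That BIP1 passed the test for stress in vip1-1 alone therefore does not show that its response differed between the genotypes.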

How the data were processed

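Polyadenylated RNA was sequenced from 12 cultures with stranded mRNA libraries, per the labels' protocols. The authors deposited whole-number counts per gene and FPKM values for the same 17741 IDs. The submitters' processing notes name HISAT2 and StringTie, without roles or versions. The genome build, annotation and strand setting are not given in the sources used here. In 2789 well-counted genes the quotient of count, deposited FPKM and library total was nearly constant over libraries (coefficient of variation 0.418%), so the authors' FPKM carry no correction for composition. Every column was tied to its sample by the short name in the labels.

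The main test on the deposited counts was edgeR (4.0.16, under R 4.3.3): filterByExpr by group left 15286 genes, libraries were TMM-scaled, and a group-means model with robust quasi-likelihood dispersions was fitted to all 12 libraries. P-values were adjusted by Benjamini-Hochberg over all genes tested, and a gene was called under 0.05. Standard errors are the absolute log2 fold change over the square root of F. Alternatives were other scalings, filters, fits and tests (DESeq2 1.42.0, limma 3.58.1 on counts and on log2(FPKM + 0.1) and log2(FPKM + 1)), a replicate block and leaving out libraries. The labels number replicates 1 to 3 in every group. Equal numbers were correlated between groups over genes, on log2 CPM less the group mean. The r was 0.157, 0.185 and 0.403 for the control groups, while every other pair of groups had at least 1 negative correlation. Unequal numbers were not correlated, so these values have no baseline and cannot show that the numbers pair cultures. An alternative fit with the control libraries only treated their numbers as paired.

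The members and the tests were chosen with earlier results of these data known. All 10 members are named in every comparison. The RefSeq gene table (assembly Chlamydomonas_reinhardtii_v5.5) matched all 10 IDs by locus tag and gives no symbols for them, so it served only for gene order, and the names are the alga's usual ones for these IDs. Wider lists of chaperone genes and promoter motifs, which needed annotated proteins and sequences, were not analysed here. Wilson intervals cover counting error only.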

Additional observations from a re-analysis of the deposited data

Results flagged for a closer look

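VIPP1 was singled out because all of its stress libraries lay on opposite sides of the controls in the genotypes: below every control library in vip1-1 (114.9 to 122.7 CPM under stress, against 140.9 to 164.8 CPM in control) and above every control library in WT (161.9 to 321 CPM under stress, against 128.2 to 132.4 CPM in control). Of all 15286 tested genes, 77 (0.504%) had such opposite separation. The difference between the responses was -1.11 on the log2 scale and did not pass adjustment (unadjusted p = 0.01, adjusted p = 0.46, edgeR's quasi-likelihood test). Over 24 alternatives the difference ran from -1.32 to -0.75 and was called under 1 of them, limma voom with sample weights.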

How the results depend on the processing

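Limits: each group holds 3 libraries, culture age and nutrient state change together, HSP22E, HSP22F and VIPP2 rest on few counts, and WT stress replicate 3 and replicate 3 of both control groups set several values. HSP22E and HSP22F gave no value where every library had to hold at least 10 counts, and the interaction uses all groups, so the fit with only the compared groups was not run for it. The number of members called for stress in vip1-1 (3) was 0 with library totals and with limma on log2(FPKM + 0.1), 1 with limma on log2(FPKM + 1), 4 with only the compared groups and 9 with limma voom with sample weights. For stress in WT (2) it was 1 with library totals and with limma on both FPKM scales, 0 with only the compared groups, and 4 with DESeq2 and with voom. Between genotypes under stress (0) it was 1 with RLE size factors and with at least 10 counts in every library, 2 with DESeq2 and 6 with voom, and for the interaction it was 1 with DESeq2 and 2 with voom. Leaving out one replicate gave 2 to 4 members for stress in vip1-1, 2 to 4 for stress in WT and 0 to 1 between genotypes under stress, and leaving out replicate 3 of both control groups gave 5 for stress in vip1-1. Over all genes, calls ran from 904 (library totals) to 10225 (voom) for stress in vip1-1, 1035 to 6173 for stress in WT with the same settings, 53 to 4023 between genotypes under stress, 0 to 849 between genotypes in control and 0 to 499 for the interaction. The cause of these shifts was not tested.

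The numbers of the replicates were also used as a block. With the replicate block HSP22F was called in WT (log2 2.55, adjusted p = 0.03, edgeR), and 3 members were called in vip1-1 and 3 in WT. The block turned the sign of 4 values that were not called: 0.057 for HSP90A in vip1-1 stress against vip1-1 control, 0.0068 for HSP22F and 0.043 for VIPP2 in vip1-1 stress against WT stress, -0.32 for HSP22E in the interaction. In that fit to all libraries the block changed no other call of a member. A separate fit with control libraries only treated the numbers as paired without proof of pairing. It called 0 members between genotypes in control and has no bearing on the other comparisons.

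No value called in the reported fit changed sign under any alternative run. Values that were not called did so in several cases, on the log2 scale, and 1 of these, HSP22F between genotypes under stress, was called by voom (0.96, adjusted p = 0.031). With at least 10 counts in every library these were 0.031 for HSP90A and 0.030 for CLPB3 in vip1-1 stress against vip1-1 control, and 0.026 for VIPP2 in vip1-1 stress against WT stress. With limma on log2(FPKM + 0.1) these were 0.081 for HSP90A in vip1-1 stress against vip1-1 control, and 0.010 for HSP70A in WT stress against WT control, and 0.032 for HSP70A, 0.52 for HSP90A, 0.49 for HSP90C, 0.58 for HSP22F, 0.053 for CLPB3 and 0.71 for VIPP2 in vip1-1 stress against WT stress, and 0.57 for HSP70A, 0.54 for HSP70B, 0.33 for HSP90A and 0.81 for BIP1 in vip1-1 control against WT control, and -0.62 for HSP22E in the interaction. With limma on log2(FPKM + 1) these were 0.077 for HSP90A in vip1-1 stress against vip1-1 control, and 0.0088 for HSP70A in WT stress against WT control, and 0.032 for HSP70A, 0.51 for HSP90A, 0.48 for HSP90C, 0.51 for HSP22F, 0.026 for CLPB3 and 0.61 for VIPP2 in vip1-1 stress against WT stress, and 0.56 for HSP70A, 0.53 for HSP70B, 0.33 for HSP90A and 0.80 for BIP1 in vip1-1 control against WT control. With library totals these were -0.046 for HSP22E in WT stress against WT control, and 0.080 for HSP70A, 0.45 for HSP90A, 0.45 for HSP90C, 0.43 for HSP22F and 0.61 for VIPP2 in vip1-1 stress against WT stress, and 0.62 for HSP70A, 0.52 for HSP70B, 0.44 for HSP90A and 0.68 for BIP1 in vip1-1 control against WT control. With only the compared groups fitted these were -0.0051 for HSP70B in WT stress against WT control. With the share of the top feature as covariate these were -0.032 for HSP70B in WT stress against WT control, and 0.42 for HSP90A and 0.19 for VIPP2 in vip1-1 stress against WT stress, and 0.40 for HSP70A, 0.0076 for HSP70B, 0.18 for HSP90A, -0.27 for HSP22E and 0.026 for BIP1 in vip1-1 control against WT control. With limma voom with sample weights these were -0.10 for HSP70B and -0.55 for HSP22E in WT stress against WT control, and 0.20 for HSP90A, 0.96 for HSP22F, 0.10 for CLPB3 and 0.45 for VIPP2 in vip1-1 stress against WT stress, and 0.12 for HSP70A in vip1-1 control against WT control. In vip1-1 stress against vip1-1 control, leaving out libraries gave -0.48 to 0.22 for HSP90A, -0.25 to 0.82 for HSP22E and -0.21 to 0.12 for CLPB3. In WT stress against WT control, leaving out libraries gave -0.36 to 0.081 for HSP70A, -0.26 to 0.15 for HSP70B, -0.96 to 0.86 for HSP22E and -0.18 to 1.01 for CLPB3. In vip1-1 stress against WT stress, leaving out libraries gave -0.40 to 0.28 for HSP90A, -0.26 to 1.55 for HSP22E, -0.74 to 0.90 for HSP22F, -1.08 to 0.045 for CLPB3 and -0.27 to 0.55 for VIPP2. In vip1-1 control against WT control, leaving out libraries gave -0.40 to 0.29 for HSP70A, -0.59 to 0.040 for HSP70B, -0.74 to 0.033 for HSP90A, -0.23 to 0.96 for HSP22E, -0.072 to 0.23 for CLPB3, -0.18 to 0.081 for BIP1 and -0.0059 to 0.65 for VIPP2. In the interaction, leaving out libraries gave -0.21 to 0.62 for HSP90A, -0.55 to 1.27 for HSP22E, -1.72 to 0.26 for HSP22F and -0.69 to 0.20 for VIPP2. Library totals and FPKM also moved the median of all tested genes. In vip1-1 control against WT control it was 0.11 in the reported fit and 0.69 with library totals. Relative to it, library totals gave -0.068 for HSP70A, -0.17 for HSP70B, -0.25 for HSP90A and -0.003 for BIP1. With limma it was 0.90 on log2(FPKM + 0.1), with the same members below it. On log2(FPKM + 1) it was 0.57, with only BIP1 of these above it, by 0.23. None of the members listed here as changing sign passed the threshold for that comparison in the reported fit. No direction is drawn from their values.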

Other observations

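The genes whose pattern came closest to 4 of the members were listed by Pearson's r of log2 CPM over the 12 libraries, as a description without a test. These libraries fall into the control and stress conditions and share replicate effects, so a high r can come from either. For VIPP2 they were Cre01.g024750, Cre12.g537371 and Cre04.g219000, at 0.98, 0.97 and 0.97. HSP90C came closest to VIPP2 among the members but stood only at rank 565 of all tested genes. Its r was 0.85 over all libraries but -0.21 after the group means were taken out. For HSP70A they were Cre17.g729250, Cre10.g453100 and Cre07.g315900, at 0.91, 0.90 and 0.89, with HSP70B at rank 14 and HSP90A at rank 19 of all tested genes. Cre10.g453100 also stood second for HSP70B, at 0.96, between Cre11.g468300 (0.97) and Cre16.g655600 (0.93). For HSP22E they were Cre07.g313850, Cre06.g289400 and Cre04.g217000, at 0.95, 0.94 and 0.94, and its neighbour HSP22F stood at 0.87, rank 233, and at 0.96 with the group means taken out. That value was 0.84 for HSP70A with HSP70B and 0.90 for HSP70A with HSP90A. These other genes carry no symbol in the tables used here.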
